A study of Mus musculus with 12 samples.

Results

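The genes that make cholesterol and fatty acids were examined in mouse aorta under BAPN + AngII challenge. The list was fixed by name and held 30 genes, of which 17 encode enzymes of sterol synthesis, 5 control sterol synthesis, 1 encodes a sterol carrier and 7 belong to fatty acid synthesis. A probe belonged to the list when its gene name in the array files was one of these, which found all 30 genes, on 47 probes, among the 34797 gene names of the array. Of the 47 probes, 45 were kept, and all 30 genes were among the 22763 genes tested. Each gene was read by its brightest kept probe, and none of these 30 probes failed to be well above background on any of the 12 arrays.

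The data were 12 one-colour arrays of RNA from the aorta of male mice, 3 in each of 4 groups, and their number limits the precision. All mice were homozygous for a Socs3 allele flanked by loxP sites (Socs3fl/fl) and carried the strain label 129S5/SvEvBrd, C57BL6 and SJL. The labels give no age, and the study's methods give 11 to 14 weeks for all its mouse experiments. The smSocs3-KO mice also carried SM22-Cre, a Cre transgene driven by a promoter of smooth muscle cells, and the WT mice were littermates without it. Each genotype was sampled before challenge and at day 3 of a combined infusion by osmotic minipump of BAPN, which blocks the crosslinking of collagen and elastin, at 150 mg/kg/day and of angiotensin II (AngII), a pressor hormone, at 1000 ng/kg/min. By the design of the cross, deletion is limited to cells that use this promoter, whereas RNA of the whole aortic tissue was measured. Fewer cells of a type and less RNA per cell therefore cannot be told apart. The labels do not say that each array came from a different mouse, and the p-values measure only the spread between these arrays.

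The log2 signal of Socs3, relative to the 75th percentile of its array as for all values here, was 0.30 to 0.75 in WT and 0.24 to 1.46 under the smSocs3-KO label before challenge, and 0.64 to 2.30 and 2.28 to 4.13 at day 3. The targeted gene was not lower under the smSocs3-KO label, and these arrays are therefore called the arrays labelled smSocs3-KO. Of the 2 slides, one carried the 6 WT arrays and a single array labelled smSocs3-KO, replicate 1 before challenge (slide 1), and the remaining 5 arrays shared slide 2, so that genotype and slide cannot be told apart at day 3. Replicate 4 of WT at day 3 stood apart from the other day 3 arrays of WT, with a lower signal of proliferation and macrophage genes, and the values that it moves most are given also without it. All 8 smooth muscle markers measured were well above background on all 12 arrays, as were 11 of 13 white fat genes and 6 of 10 liver genes. On no array were the fat hormone Lep, the liver genes Alb, Apoa1 and Ttr, or 6 of 10 adrenal genes, Cyp11a1 and Cyp11b1 among them, well above background.

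Cholesterol is built from acetyl-CoA through mevalonate, isoprenoid units, squalene and lanosterol, and the enzymes of the later steps trim lanosterol to cholesterol. When the membranes of the endoplasmic reticulum hold little sterol, the escort protein Scap carries the precursors of the transcription factors Srebf1 and Srebf2 to the Golgi, where they are released by cleavage, and Insig1 and Insig2 hold Scap back when sterol is plentiful. Srebf2 is known mainly for driving sterol enzymes and the Srebf1c form of Srebf1 for driving fatty acid enzymes. In the arterial wall, sterol and fatty acid synthesis serve membrane growth, and excess sterol is exported or oxidised.

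Promoters are shown for enzymes at successive steps of the pathway that were called in the challenge response described below, for Hmgcs1 at its entry, for Srebf2, and for Fasn and Elovl6 of fatty acid synthesis. The stretches shown are 180 or 100 bases long, a length set for each gene, so that their marks are not to be counted against each other. They come from RefSeq (GRCm38.p6), run 5′ to 3′ along the gene's own strand and end at the base before the annotated start. Capitals mark the pentamer CCAAT on either strand (read as ATTGG on the other), to which the factor NF-Y is known to bind, and TCACNCCA on either strand, a short form of the sterol regulatory element to which the SREBP proteins bind. Where a pentamer on one strand overlaps one on the other, both were counted.
Hmgcs1 (chr13:119690171-119690350, + strand): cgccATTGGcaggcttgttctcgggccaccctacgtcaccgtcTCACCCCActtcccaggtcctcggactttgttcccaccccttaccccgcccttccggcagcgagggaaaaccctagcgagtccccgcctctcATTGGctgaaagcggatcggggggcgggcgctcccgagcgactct
Mvk (chr5:114444089-114444268, + strand): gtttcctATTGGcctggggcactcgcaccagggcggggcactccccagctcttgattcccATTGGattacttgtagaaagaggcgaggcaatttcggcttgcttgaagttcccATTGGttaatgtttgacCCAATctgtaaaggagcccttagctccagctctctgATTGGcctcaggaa
Mvd (chr8:122443423-122443522, - strand): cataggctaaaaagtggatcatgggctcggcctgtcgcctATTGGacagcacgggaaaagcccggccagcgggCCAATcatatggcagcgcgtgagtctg
Idi1 (chr13:8885506-8885605, + strand): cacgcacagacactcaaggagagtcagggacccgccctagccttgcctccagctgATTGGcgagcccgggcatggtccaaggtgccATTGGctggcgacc
Cyp51 (chr5:4104698-4104797, - strand): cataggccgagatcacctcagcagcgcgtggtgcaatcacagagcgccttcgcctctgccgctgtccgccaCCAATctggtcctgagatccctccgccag
Sc4mol (now Msmo1, chr8:64733579-64733758, - strand): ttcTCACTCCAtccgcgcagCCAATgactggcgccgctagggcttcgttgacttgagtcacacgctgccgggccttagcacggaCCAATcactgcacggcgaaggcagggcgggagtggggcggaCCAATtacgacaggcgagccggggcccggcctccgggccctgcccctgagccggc
Nsdhl (chrX:72918421-72918520, + strand): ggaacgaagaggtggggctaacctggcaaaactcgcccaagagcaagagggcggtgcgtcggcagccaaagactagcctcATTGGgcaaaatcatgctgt
Ebp (chrX:8193513-8193612, - strand): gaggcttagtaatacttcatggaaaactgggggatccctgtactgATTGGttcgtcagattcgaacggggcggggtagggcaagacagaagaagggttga
Srebf2 (chr15:82147089-82147268, + strand): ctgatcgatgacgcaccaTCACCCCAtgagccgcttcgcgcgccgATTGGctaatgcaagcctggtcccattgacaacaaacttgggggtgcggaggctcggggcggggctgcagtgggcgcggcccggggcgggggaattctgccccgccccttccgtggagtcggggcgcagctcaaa
Fasn (chr11:120824548-120824647, - strand): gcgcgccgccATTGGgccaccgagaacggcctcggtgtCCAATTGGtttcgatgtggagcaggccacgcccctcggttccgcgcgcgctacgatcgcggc
Elovl6 (chr3:129532286-129532385, + strand): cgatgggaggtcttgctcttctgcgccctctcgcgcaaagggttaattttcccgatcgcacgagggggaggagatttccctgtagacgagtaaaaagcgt

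The RefSeq table held promoter windows for 14 of the 17 sterol enzymes and for 5 of the 7 fatty acid genes. Within 250 bases before and 50 bases after the start, all 14 sterol enzymes had CCAAT on at least 1 strand and 9 of them had it at least 2 times, whereas 41.1% of all 27025 genes with a window had it at least once and 13.3% at least 2 times. Among the tested genes with a window, these shares were 42.2% and 15.4%. Of the 5 fatty acid genes, Fasn had the pentamer 3 times and Acly and Me1 had it 1 time each, and Acaca and Elovl6 did not have it. Mvk had 5 matches, beginning 173, 120, 67, 50 and 14 bases before its start. TCACNCCA was present in the windows of 2 of the 14 sterol enzymes, Hmgcs1 and Sc4mol, where it began 137 and 177 bases before the start, and in 4.97% of all genes. It was also present in the window of Srebf2, beginning 162 bases before its start and followed by a CCAAT match at 135 bases. The GC box GGGCGG, on either strand, was found in 13 of the 14 sterol enzymes and in 62.7% of the tested genes with a window. Genes with more than 1 window were counted by the window with the most matches. A match describes the letters of the window and is not a measured binding site.

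The sterol enzymes were higher after 3 days of challenge. In the mean of both genotypes' challenge responses, all 17 had a positive log2 difference, with a median of 0.67 compared with -0.05 over all genes tested, and 12 of the 17 rose with a limma adjusted p under 0.05, where 13.6% of all genes tested rose at that threshold. The 12 were Mvk, Pmvk, Mvd, Idi1, Fdps, Fdft1, Sqle, Lss, Cyp51, Sc4mol, Nsdhl and Ebp. The rise was largest for Fdps, the enzyme that makes farnesyl diphosphate, at 2.27 (standard error 0.36, limma adjusted p = 0.00541), a 4.84-fold change. It was 1.16 for Mvd (standard error 0.25, limma adjusted p = 0.0114), 1.09 for Cyp51 (standard error 0.25, limma adjusted p = 0.0151) and 1.04 for Idi1 (standard error 0.28, limma adjusted p = 0.0249), and between 0.50 and 0.90 for the other 8. Mvk, Mvd, Fdps, Cyp51 and Ebp kept an adjusted p under 0.05 in all of 19 alternatives to the processing, which include leaving out each array in turn, whereas Pmvk lost its call in 14, Sc4mol in 11, Fdft1 and Lss in 10, Nsdhl in 9, Sqle in 7 and Idi1 in 5 of them. With the slide as a block, the sterol enzymes' median was 0.62, all 17 were higher and 5 were called.

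The other 5 sterol enzymes had values of 0.63 for Hmgcs1 (limma adjusted p = 0.0674), 0.67 for Hsd17b7 (limma adjusted p = 0.071), 0.65 for Sc5d (limma adjusted p = 0.115), 0.47 for Tm7sf2 (limma adjusted p = 0.128) and 0.21 for Dhcr7 (limma adjusted p = 0.556) and were not called. Of these, Hmgcs1 makes the precursor of mevalonate and Dhcr7 carries out one of the last steps to cholesterol. The number of sterol enzymes called was 15 of 17 without replicate 4 of WT at day 3, with Hmgcs1, Hsd17b7 and Sc5d among them, and 5 of 17 without replicate 1 of WT before challenge, replicate 1 of WT at day 3 or replicate 1 labelled smSocs3-KO before challenge. Over all genes, 5178 were called in either direction with every array, 6436 without the first of these and 2522, 2577 and 4101 without the others.

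**Figure D1:**
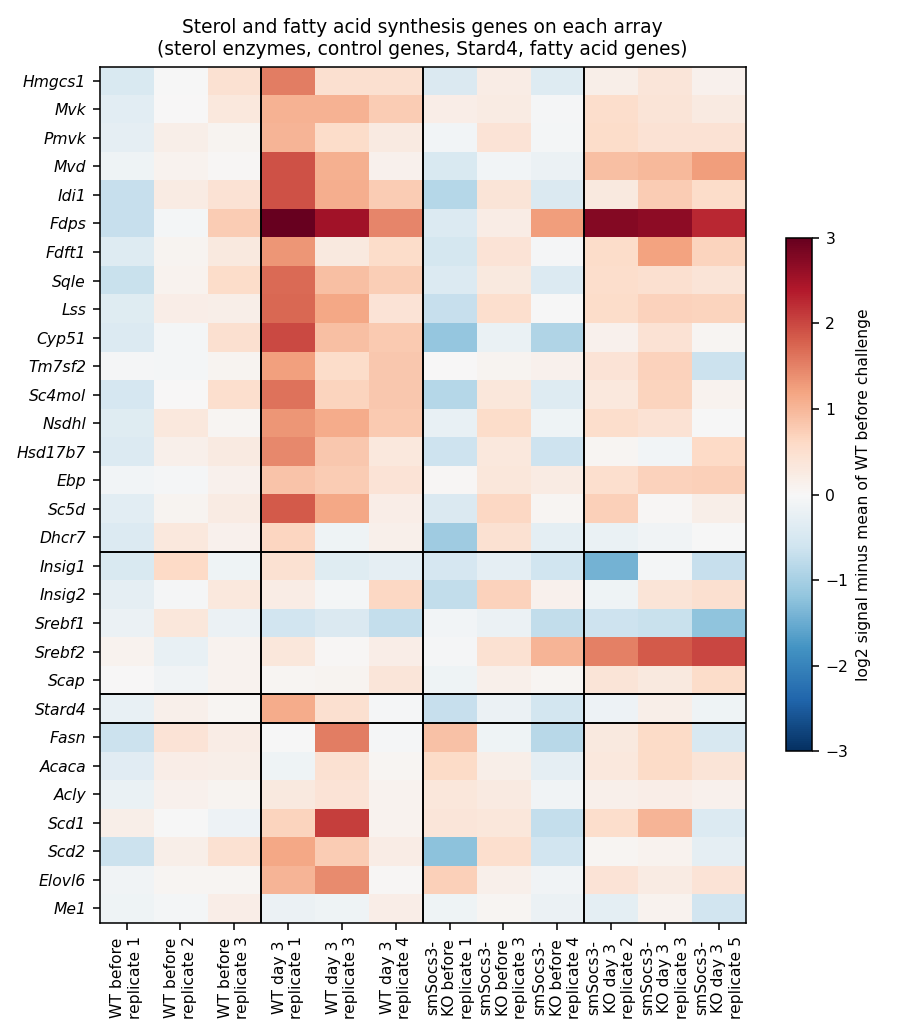
Heat map of the 30 genes (rows: sterol enzymes, control genes, Stard4 and fatty acid genes, divided by lines) on the 12 arrays (columns, by group and replicate). Colour gives the log2 signal minus the mean of the 3 WT arrays before challenge. The sterol enzymes are mostly red on the day 3 arrays, most strongly on WT replicate 1, and Srebf2 is red on the 3 day 3 arrays labelled smSocs3-KO.

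The first enzymes of the pathway convert mevalonate to isoprenoid units. Values are given in the order of replicates 1, 2 and 3 of WT before challenge, 1, 3 and 4 of WT at day 3, 1, 3 and 4 labelled smSocs3-KO before challenge and 2, 3 and 5 at day 3. The log2 signal of Mvk, the kinase of mevalonate, was 3.08, 3.39 and 3.70, then 4.44, 4.43 and 4.16 in WT, and 3.58, 3.63 and 3.36, then 3.92, 3.77 and 3.67 under the smSocs3-KO label. The groups did not overlap in either genotype, and the WT arrays at day 3 lay above all other arrays. Pmvk, which adds the next phosphate, had a log2 signal of 2.95, 3.38 and 3.29, then 4.22, 3.75 and 3.49 in WT, and of 3.13, 3.61 and 3.15, then 3.75, 3.64 and 3.65 under the smSocs3-KO label. For Mvd, the decarboxylase that follows, it was -1.23, -0.98 and -1.05, then 0.81, -0.02 and -0.95 in WT, and -1.55, -1.18 and -1.26, then -0.19, -0.11 and 0.17 under the smSocs3-KO label. For Mvd, replicate 4 of WT at day 3 lay only just above the highest array before challenge. Idi1, the isomerase of the isoprenoid unit, had 1.02, 1.94 and 2.14, then 3.60, 2.79 and 2.47 in WT, and 0.84, 2.08 and 1.26, then 1.99, 2.45 and 2.26 under the smSocs3-KO label, where replicate 3 before challenge lay within the range of day 3.

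The middle enzymes lead from isoprenoid units to lanosterol. Fdps, measured by 1 probe (mm9 chr3:88897549-88897608), had a log2 signal of 0.37, 1.0 and 1.82, then 4.13, 3.57 and 2.53 in WT, and of 0.66, 1.29 and 2.32, then 3.81, 3.75 and 3.33 under the smSocs3-KO label. All 6 day 3 arrays lay above all 6 arrays before challenge. Fdft1, which makes squalene, had 0.56, 1.03 and 1.23, then 2.26, 1.23 and 1.5 in WT, and 0.42, 1.34 and 0.91, then 1.49, 2.15 and 1.61 under the smSocs3-KO label. A second Fdft1 probe (mm9 chr14:63764562-63764621) went the other way, with log2 differences at day 3 of -0.39 in WT and -0.71 under the smSocs3-KO label against 0.72 and 0.86 for the probe used, so that the direction of Fdft1 depends on the probe. For Sqle, the squalene epoxidase, the log2 signal was 2.0, 2.76 and 3.2, then 4.36, 3.57 and 3.39 in WT, and 2.24, 2.95 and 2.25, then 3.18, 3.13 and 3.04 under the smSocs3-KO label. For Lss, which closes the rings to lanosterol, it was -1.94, -1.37 and -1.40, then 0.15, -0.40 and -1.17 in WT, and -2.26, -1.06 and -1.58, then -1.01, -0.89 and -0.91 under the smSocs3-KO label. In Sqle and Lss the arrays of day 3 lay above those before challenge in both genotypes, though by little under the smSocs3-KO label.

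The late enzymes trim lanosterol. Cyp51, the demethylase that acts on lanosterol, had a log2 signal of -1.78, -1.42 and -0.88, then 0.61, -0.45 and -0.57 in WT, and of -2.51, -1.55 and -2.27, then -1.23, -0.92 and -1.30 under the smSocs3-KO label. Its day 3 arrays labelled smSocs3-KO lay above their own arrays before challenge but within the range of WT before challenge. Sc4mol, a methyl oxidase of the following steps, had 2.81, 3.32 and 3.82, then 4.95, 3.98 and 4.13 in WT, and 2.47, 3.67 and 2.93, then 3.64, 3.98 and 3.42 under the smSocs3-KO label. For Nsdhl, which acts with it, the log2 signal was -0.91, -0.23 and -0.48, then 0.79, 0.57 and 0.24 in WT, and -0.77, 0.00 and -0.67, then -0.02, -0.10 and -0.56 under the smSocs3-KO label. For Nsdhl the WT groups were apart and the smSocs3-KO groups overlapped. Ebp, the sterol isomerase, had 3.98, 4.02 and 4.20, then 4.92, 4.81 and 4.46 in WT, and 4.09, 4.41 and 4.30, then 4.57, 4.76 and 4.78 under the smSocs3-KO label, with no overlap between days in either genotype.

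In WT, all 17 sterol enzymes were higher at day 3, with a median log2 difference of 1.03, compared with -0.02 over all genes. Those called were Fdps, with 2.35 (standard error 0.51, limma adjusted p = 0.0364), Nsdhl, with 1.07 (standard error 0.26, limma adjusted p = 0.0475), Mvk, with 0.95 (standard error 0.18, limma adjusted p = 0.0331), and Ebp, with 0.67 (standard error 0.17, limma adjusted p = 0.0483). This is 4 of 17, compared with 3.58% of all genes that were called higher in WT. A further 12 had an unadjusted p under 0.05. In 15 of the 17 the 3 day 3 arrays lay above the 3 arrays before challenge, which held for 20.7% of all genes tested, and Sc5d and Dhcr7 were the exceptions. Past the study's own threshold, an unadjusted p under 0.01 with a fold change over 4, lay only Fdps among the 30 genes, where 1.11% of all genes passed upward. All 6 WT arrays were on slide 1, and with the slide as a block the medians and the number of calls in WT were the same. The calls rested on the arrays. Without replicate 4 of WT at day 3, 11 sterol enzymes and Elovl6 were called where 3627 of all genes were, compared with 1063 with every array, and without any 1 of the other 5 WT arrays, or without replicate 4 labelled smSocs3-KO before challenge, none of the 30 was. In those 6 cases no more than 3 of all 22763 genes were called by limma, and 3597 to 5746 had an unadjusted p under 0.05. Without replicate 2 or 3 labelled smSocs3-KO at day 3, 2 and 1 of the 30 were. The median of the sterol enzymes was 0.68 without replicate 1 of WT at day 3 and 1.15 without replicate 4.

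On the arrays labelled smSocs3-KO, all 17 sterol enzymes again had a positive log2 difference, with a median of 0.49, compared with -0.06 over all genes. Fdps was called, with 2.20 (standard error 0.51, limma adjusted p = 0.0498), beside Srebf2, so that 2 of the 30 genes were called higher, compared with 1.71% of all genes. Fdps was also the only one of the 30 past the study's threshold, which 1.44% of all genes passed upward. In 9 of the 17 sterol enzymes the groups did not overlap, compared with 14.1% of all genes. The next largest values were 1.28 for Mvd (limma adjusted p = 0.0725), 0.96 for Cyp51 (limma adjusted p = 0.147), 0.86 for Fdft1 (limma adjusted p = 0.151) and 0.84 for Idi1 (limma adjusted p = 0.224). The late enzymes Tm7sf2, with 0.08, Dhcr7, with 0.20, Sc5d, with 0.23, and Nsdhl, with 0.25, had the smallest values. This response is partly a comparison across slides, since 1 of the 3 arrays before challenge was on slide 1. A difference between slides cannot be told apart here from a difference of that 1 array. Within slide 2, which is what a slide block amounts to here, the median was 0.35, 15 of the 17 were higher and none of the 30 was called (Fdps 1.82, limma adjusted p = 0.161). Of all 22763 genes, 52 were called with that block, compared with 557 without it. Without any 1 of the WT arrays before challenge, of replicates 1 and 3 before challenge and of replicates 3 and 5 at day 3 under this label, none of the 30 was called either. In those cases 42 to 357 of all genes were called. The median of the sterol enzymes was 0.80 without replicate 3 before challenge under this label. In the 3 arrays before challenge under this label, 16 of the 17 sterol enzymes were higher on slide 2 than on slide 1, by a median of 0.47, which rests on the 1 array of slide 1.

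**Figure D2:**
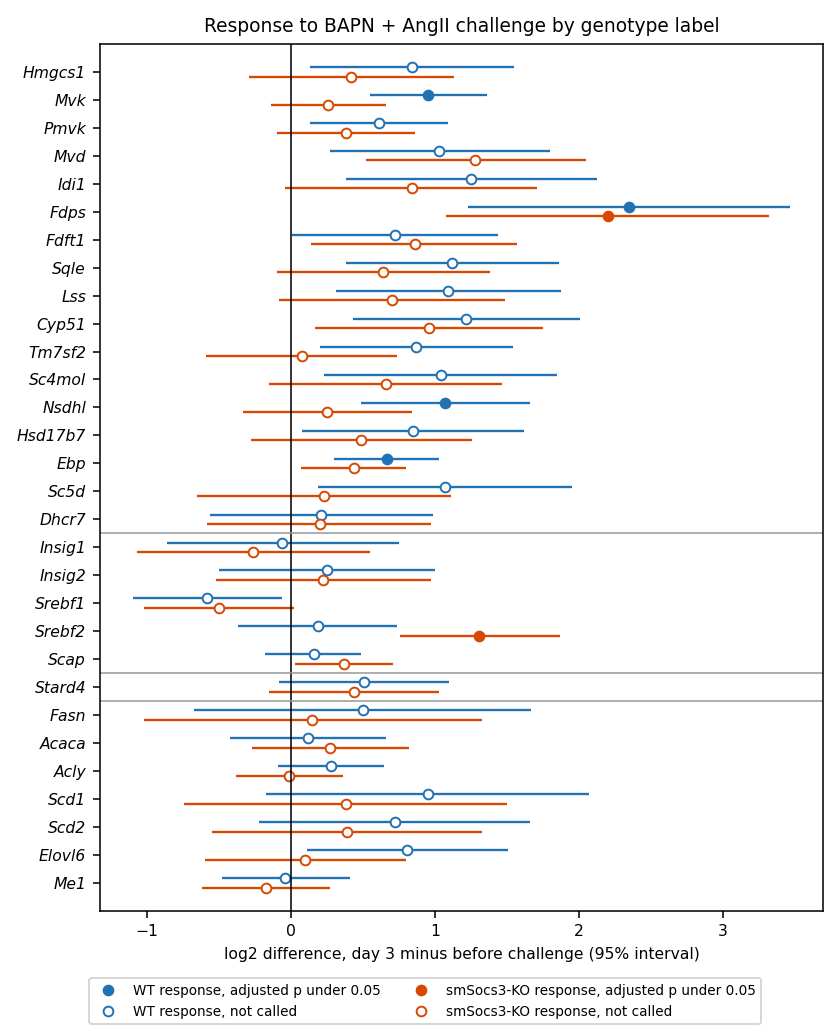
Log2 difference between day 3 and before challenge (horizontal axis) for each of the 30 genes in WT (blue) and under the smSocs3-KO label (orange). Lines are limma 95% intervals and filled points have an adjusted p under 0.05; sterol enzymes lie to the right of 0 in both genotypes, Fdps farthest at 2.35 and 2.20.

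Between the genotype labels, only 1 of the 30 genes, Srebf2 at day 3, was called. Before challenge, none of the 30 genes was called and 0.0264% of all genes were, none of the 30 had an unadjusted p under 0.05, and the median of the sterol enzymes was -0.07. This median was -0.44 with the slide as a block, with 3 of the 17 higher, and -0.32 to 0.11 with 1 array left out, so that its direction depended on single arrays. At day 3, 14 of the 17 sterol enzymes were lower under the smSocs3-KO label, by a median of -0.61, compared with -0.08 over all genes. The median was -0.36 without replicate 1 of WT at day 3, with 5 of the 17 higher, and -0.79 without replicate 4. In 7 of the 17 the arrays labelled smSocs3-KO lay below all 3 WT arrays, compared with 12.7% of all genes. The largest of these differences was for Cyp51, at -1.01 (standard error 0.36, limma adjusted p = 0.209), and no sterol enzyme passed the adjusted threshold, 4 of them having an unadjusted p under 0.05. Within the design, this difference cannot be told apart from that between the slides. With a block for the slide, set only by the arrays before challenge, the median was -1.02 and all 17 were lower, with none called. The 8 proliferation genes measured were also lower under the smSocs3-KO label at day 3, by a median of -1.47 with none called, and the 12 white fat genes measured had a median of 1.02 with none called.

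The interaction, the challenge response under the smSocs3-KO label minus that in WT, had a median of -0.38 for the sterol enzymes and was below 0 for 15 of 17, compared with a median of -0.06 over all genes. It rested on single arrays, and was -0.08 without replicate 1 of WT at day 3, with 5 of 17 above 0, -0.10 without replicate 3 labelled smSocs3-KO before challenge, -0.15 without replicate 1 of WT before challenge and -0.59 without replicate 4 of WT at day 3. No gene on the array was called (0% of all genes; 1214 had an unadjusted p under 0.05). Among the sterol enzymes Mvk alone had an unadjusted p under 0.05, with -0.69 (limma 95% interval -1.26 to -0.13, limma adjusted p = 0.901). For Fdps it was -0.15, with an interval from -1.73 to 1.43. A smaller response of the sterol enzymes under the smSocs3-KO label was therefore not shown by these arrays, and the intervals leave room for differences of over 2-fold in either direction for Fdps.

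Of the genes that control sterol synthesis, Srebf2 and Srebf1 went in opposite directions. Srebf2, the transcription factor of the sterol enzymes, had a log2 signal of -2.75, -3.09 and -2.75, then -2.52, -2.83 and -2.67 in WT, and of -2.90, -2.40 and -1.85, then -1.34, -1.01 and -0.86 under the smSocs3-KO label. The day 3 arrays labelled smSocs3-KO lay above the other 9. Its rise was 1.31 under the smSocs3-KO label (standard error 0.25, limma adjusted p = 0.0325), compared with 0.19 in WT (limma adjusted p = 0.658). The genotype difference at day 3 was 1.60 (standard error 0.25, limma adjusted p = 0.0203), where 0.958% of all genes were called higher. The interaction was 1.13 (limma 95% interval 0.34 to 1.91, limma adjusted p = 0.829), and the mean of both responses was 0.75 (limma adjusted p = 0.0161).

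These Srebf2 values depended on the probe and on the slide. The probe used lies at mm9 chr15:82034765-82034824 on the + strand, and a second probe at chr15:82030068-82030127. The second probe had a log2 signal of -2.98, -2.88 and -2.75, then -1.16, -1.89 and -2.79 in WT, and of -2.83, -2.86 and -2.74, then -1.40, -1.57 and -1.25 under the smSocs3-KO label. By this probe the rise in WT was 0.92 (standard error 0.32, limma adjusted p = 0.102), that under the smSocs3-KO label 1.41 (standard error 0.32, limma adjusted p = 0.0479) and the genotype difference at day 3 only 0.54 (limma adjusted p = 0.438). Both probes placed the smSocs3-KO arrays of day 3 above those before challenge. They differed most on replicates 1 and 3 of WT at day 3 and on replicate 4 labelled smSocs3-KO before challenge. On the last of these the log2 signal was -1.85 by the probe used and -2.74 by the second. The mean of both responses was called with either probe, at 0.75 and 1.17. With the slide as a block, the probe used gave 1.06 for the smSocs3-KO response (limma adjusted p = 0.0877) and 0.83 for the day 3 genotype difference (limma adjusted p = 0.298). Under that label before challenge, the arrays of slide 2 were 0.77 above the array of slide 1 by the probe used. By the second probe the arrays of slide 2 had -2.86 and -2.74, beside -2.83 on slide 1. The day 3 genotype difference also lost its call without replicate 3 of WT, or replicate 3 or 5 labelled smSocs3-KO, at day 3, with values of 1.5 to 1.57.

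**Figure D3:**
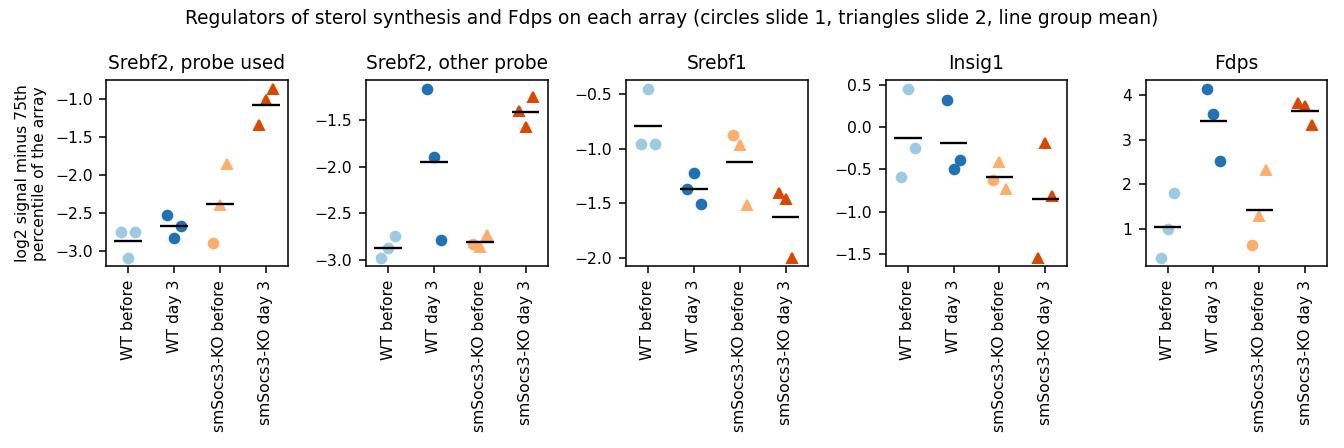
Log2 signal relative to the array's 75th percentile (vertical axes, ranges differ) of Srebf2 by both of its probes, of Srebf1, of Insig1 and of Fdps in the 4 groups (horizontal axis). Each point is 1 array, circles on slide 1 and triangles on slide 2, and lines are group means; the Srebf2 probe used separates the genotypes at day 3, the other probe puts WT replicate 1 (-1.16) above the arrays labelled smSocs3-KO.

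Srebf1 had a log2 signal of -0.96, -0.45 and -0.96, then -1.37, -1.22 and -1.51 in WT, and of -0.87, -0.97 and -1.52, then -1.41, -1.46 and -2.0 under the smSocs3-KO label. The WT arrays at day 3 lay below those before challenge, and the smSocs3-KO groups overlapped. In the mean of both responses it fell by 0.54 (standard error 0.17, limma adjusted p = 0.04), where 9.18% of all genes were called lower. The call was lost in 13 of 19 alternatives, among them the slide block, with a value between -0.64 and -0.34 throughout. Insig1, the feedback inhibitor whose own gene is known as a target of Srebf2, was not called in any comparison. Its log2 signal was -0.59, 0.46 and -0.25, then 0.33, -0.49 and -0.39 in WT, and -0.63, -0.41 and -0.73, then -1.55, -0.19 and -0.81 under the smSocs3-KO label. The groups overlapped throughout, and the mean of both responses was -0.16 (limma 95% interval -0.73 to 0.41, limma adjusted p = 0.67). Insig2 had 0.24 in the same comparison by the probe used, while its other probe had -0.45 in WT and -0.52 under the smSocs3-KO label. Scap had 0.26 (limma adjusted p = 0.0963). Stard4, a carrier that moves cholesterol between membranes and is known as a target of Srebf2, had 0.48 (limma adjusted p = 0.0897).

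The 7 fatty acid genes were not called in any comparison, where 13.6% of all genes were called higher in the mean of both responses, 3.58% in WT and 1.71% under the smSocs3-KO label. In the mean of both responses 6 of the 7 were higher, with a median log2 difference of 0.33. Their median was 0.50 in WT and 0.15 under the smSocs3-KO label. These medians depended on single arrays. In WT it was 0.18 without replicate 1 before challenge, 0.21 without replicate 3 at day 3 and 0.76 without replicate 4 at day 3. Under the smSocs3-KO label it was -0.08 without replicate 4 before challenge, 0.33 without replicate 1 before challenge, and 0.07, 0.06 and 0.29 without replicates 2, 3 and 5 at day 3. In the mean of both responses it was 0.12 without replicate 3 of WT at day 3 or replicate 4 labelled smSocs3-KO before challenge, and 0.17 without replicate 1 of WT before challenge. The largest values were in WT, 0.95 for Scd1 and 0.72 for Scd2, desaturases that make monounsaturated fatty acids, and 0.81 for Elovl6 (limma adjusted p = 0.256, 0.299 and 0.135), which elongates palmitate. In WT, Fasn, the fatty acid synthase, had 0.50 (limma 95% interval -0.67 to 1.67), and Acly, which supplies acetyl-CoA to both pathways, had 0.28. Acaca, which makes malonyl-CoA, had 0.12 by the probe used, and another of its probes, upstream in the gene, had -0.61. Me1, a source of NADPH, had -0.04 in WT. No fatty acid gene had groups without overlap between days in either genotype. Of all genes tested, 20.7% in WT and 14.1% under the smSocs3-KO label had day 3 arrays all above those before challenge.

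The arrays of WT at day 3 ordered both pathways differently. On replicates 1, 3 and 4, the log2 signal of Fasn was -0.95, 0.59 and -0.97 and that of Scd1 was 3.16, 4.57 and 2.60, so that replicate 3 was highest in both, whereas the sterol enzymes were highest on replicate 1. Elovl6 had 1.68, 2.07 and 0.69, compared with 0.55 to 0.73 before challenge. It was called in WT, at 1.21 (limma adjusted p = 0.01), when replicate 4 was left out. The mean level of the sterol enzymes relative to WT before challenge was 1.54, 0.88 and 0.58 on these 3 arrays, and that of the fatty acid genes 0.40, 0.93 and 0.10. The mean level of the sterol enzymes was 0.55, 0.63 and 0.45 on the day 3 arrays labelled smSocs3-KO, -0.38 to 0.29 in WT before challenge and -0.47 to 0.30 under the smSocs3-KO label before challenge, so that every day 3 array lay above every array before challenge. The mean level of the fatty acid genes was 0.21, 0.41 and -0.12 on the day 3 arrays labelled smSocs3-KO and -0.40 to 0.22 before challenge, and the groups overlapped.

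Across all 12 arrays, the sterol enzymes moved together more closely than the fatty acid genes. The median Pearson correlation over the 136 pairs of sterol enzymes was 0.82 (0.34 to 0.97), over the 21 pairs of fatty acid genes 0.43 (-0.30 to 0.81), and over the 119 mixed pairs 0.39. Within groups, with group means taken out, these medians were 0.72, 0.38 and 0.14. Pairs share genes, arrays and groups, and the values are descriptions over 12 arrays. Beside the mean level of the other sterol enzymes, Idi1, Sqle and Lss had the closest course (r of 0.98, 0.97 and 0.97), and Tm7sf2 and Dhcr7 the loosest (0.66 each). Of the 13 genes outside the sterol enzymes, Stard4 (0.88) and Scd2 (0.87) followed their level most closely. For Srebf2 r was 0.19 by the probe used and 0.73 by the other. For Fasn r was 0.24, for Acaca 0.09, for Me1 -0.02, for Insig1 0.27 and for Srebf1 -0.40.

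**Figure D4:**
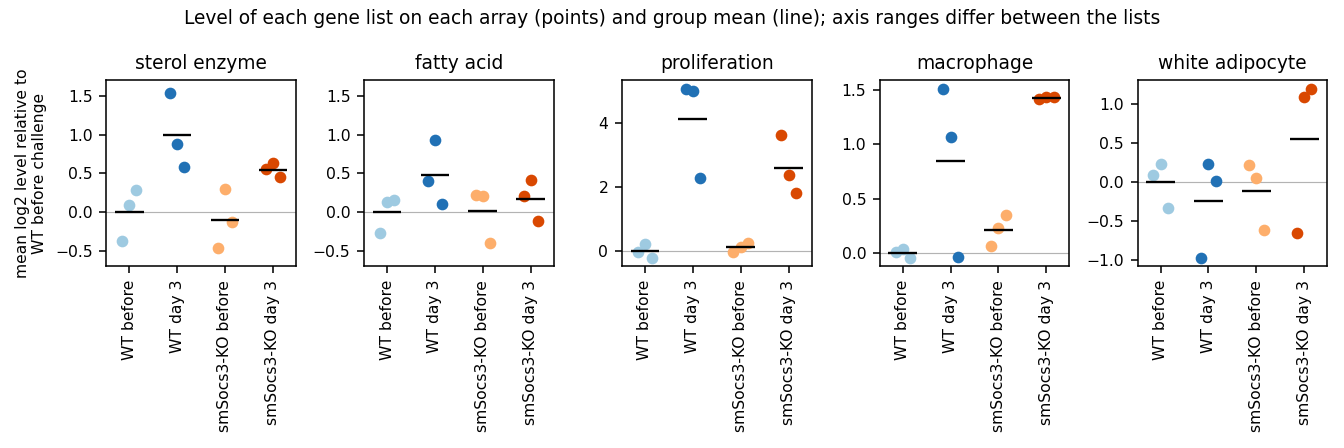
Mean log2 level of the genes of a list on each array (points) relative to the mean of WT before challenge, by group, with group means as lines; vertical ranges differ between lists. The sterol enzyme level is 0.45 to 1.54 on the 6 day 3 arrays and at most 0.30 before challenge, and the proliferation level is at least 1.81 at day 3 and at most 0.27 before.

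Other lists were also compared between days. In the mean of both responses, 13.6% of all genes were called higher and 9.18% lower. The 8 proliferation genes measured, with Ccnb2, Bub1, Top2a, Cdk1, Birc5 and Mki67 first by p, were all called higher in WT, where 3.58% of all genes were, with a median of 4.08. Under the smSocs3-KO label Cdk1 alone was called, beside 1.71% of all genes called higher, and the median was 2.34. All 8 were nevertheless higher there without overlap between days, which held for 14.1% of all genes. The summed linear signal of the proliferation genes, in units of the array's 75th percentile, was 2.27 to 3.28 on the WT arrays and 2.76 to 3.21 on the smSocs3-KO arrays before challenge, and 11.7 to 82.1 and 9.10 to 30.8 at day 3. On replicates 1, 3 and 4 of WT at day 3 the proliferation level was 5.08, 5.02 and 2.29 and the macrophage level 1.51, 1.07 and -0.03. Of the 8 macrophage genes measured, Cd68, Mrc1, Cd14, Csf1r, Emr1 and Fcgr1 were called higher in the mean of both responses, 6 of 8 beside 13.6% of all genes. The list had a median of 1.14, and its summed signal was 194 to 240 and 143 to 334 before challenge and 164 to 281 and 178 to 218 at day 3. Of the 8 smooth muscle genes, Myh11 and Myocd fell in that comparison and the list had a median of -0.42, with a summed signal of 2670 to 2960 and 2370 to 3550 before challenge and 2100 to 2640 and 1710 to 2020 at day 3. Among the 12 white fat genes measured none was called, and their median was -0.15 in WT and 0.66 under the smSocs3-KO label, with a summed signal of 131 to 163 and 129 to 171 before challenge and 64.1 to 162 and 106 to 401 at day 3. In both ranges of each pair the first is WT. Of the 6 liver genes measured, Ahsg (1.71) and Apoa2 (0.57) rose in the mean of both responses, with a median of 0.70. Ahsg was also called in the smSocs3-KO response (2.61) and between genotypes at day 3 (1.81), where 1.71% and 0.958% of all genes were called higher. The summed signal of the liver genes was 17.5 to 21.1 and 17.1 to 21.2 before challenge and 18.7 to 35.6 and 24.5 to 77.9 at day 3. Of the 6 brown fat genes measured, Dio2 rose (1.33) and Ppargc1a fell (-0.74) in that mean, with a median of 0.40 over the list. Of the 7 endothelial genes, only Emcn was called (1.0), so that the brown fat and endothelial counts lay near the shares of all genes. Replicate 3 of WT at day 3 was the highest for the brown fat genes (1.77) as it was for Fasn and Scd1. The part of these cell types in the sterol and fatty acid values was not tested.

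Neighbouring pathways were followed in further lists, and their counts in the mean of both responses stand beside 13.6% of all genes called higher and 9.18% called lower. For these lists, rose and fell stand for a limma adjusted p under 0.05. A list of 12 genes mostly covered the branches that use isoprenoid units, but also held Acat2 and Lbr of sterol synthesis itself. Of these 12, Nus1, needed to make dolichol, rose in WT by 0.97 (limma adjusted p = 0.0335), where 3.58% of all genes were called higher. In the mean of both responses Nus1 and Acat2 rose (0.80 and 0.76) and Pggt1b fell (-0.38), with a median of 0.08 over the list. Of 18 genes of sterol export, storage, oxidation and uptake, 6 rose and 1 fell in that mean, with a median of 0.23. The oxysterol enzyme Ch25h rose by 3.19 (limma adjusted p = 0.0102) and Cyp7b1 by 1.71 (limma adjusted p = 0.0049), the receptor gene Scarb1 by 0.81, Stard3 by 0.62 and the sterol sensor Nr1h3 by 0.58, and Cyp27a1, which oxidises cholesterol in mitochondria, fell (-1.40, limma adjusted p = 0.016). In the smSocs3-KO response, where 1.71% of all genes were called higher, the exporter Abcg1 (1.58, limma adjusted p = 0.0451), Cyp7b1 (2.12, limma adjusted p = 0.0228) and Nr1h3 (0.90, limma adjusted p = 0.0336) were called. Between genotypes at day 3, where 0.958% of all genes were called higher, the exporter Abca1 (0.93, limma adjusted p = 0.0448) and Cyp7b1 (2.97, limma adjusted p = 0.00759) were called. With the slide as a block, 0 of all genes were called in that comparison. Before challenge, the genotype difference of Cyp7b1 was 2.16 (limma adjusted p = 0.133). Of 24 further genes of fatty acid and triglyceride synthesis measured, 5 rose in the mean of both responses and none fell, namely Fads3 (1.03), Pgd (0.70), Hsd17b12 (0.69), G6pdx (0.69) and Elovl1 (0.46), with a median of 0.23. G6pdx and Pgd are the NADPH-producing enzymes of the pentose phosphate pathway. Of 16 genes of fatty acid oxidation, Slc25a20 (0.79) and Cpt2 (0.54) rose and Ppargc1a (-0.74) and Hadh (-0.55) fell.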

How the data were processed

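The members and gene lists were chosen with earlier results of these data known. The authors deposited scanner output for every array, whose processed signal gives each spot's intensity, linear and background-subtracted (Agilent Feature Extraction, version 10.7.1.1 per the file headers and 9.5.1.1 per the submitters' processing notes). They also deposited a table of linear intensity values with 1 median, 30.2, in every column, whose order matched the scanner values (Spearman correlation at least 0.99997). From the scanner files, log2 of the processed signal minus the array's 75th percentile was taken, outlier spots were left out and spots of a probe averaged. The header's limit for a spot well above background is 13 times the SD of the background. A probe was kept if it passed that limit throughout the 3 arrays of some group (32288 of 55681), and no spot was saturated. The brightest kept probe stood for a gene. Group means were estimated in 1 model over the 4 groups (limma 3.58.1, R 4.3.3), with Benjamini-Hochberg adjustment over all 22763 genes and a threshold of 0.05. In data simulated for the WT challenge response, 156 of 200 genes changed 4-fold were called and 9 unchanged genes. The simulated noise was independent between genes and arrays, with no slide difference or outlying array. These counts therefore do not cover smaller changes or such arrays. Members with an adjusted p under 0.05 in any comparison, and Srebf1, Srebf2 and Insig1, are given by array, and genes of other lists where called, at most 6 a list and comparison by p. Promoters are from RefSeq (GRCm38.p6), and probe positions are those of the files (mm9). Alternatives covered the background correction, the authors' table, scaling, filter, probe choice, arrays, slide, replicate block and threshold.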

Additional observations from a re-analysis of the deposited data

How the results depend on the processing

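The direction of the sterol enzymes held in the alternatives run, with 17 of 17 higher in the mean of both responses, 16 to 17 in WT and 15 to 17 under the smSocs3-KO label, and no called gene changed sign. Apart from averaging a gene's probes, these alternatives tried another probe for Srebf2 only, and the second probe of Fdft1 went the other way. The number of the 30 genes called moved more. In WT it was 4, and 1 in the authors' table, 0 without a filter on dim probes, 0 with only the groups compared (0 of all genes called, 6524 with an unadjusted p under 0.05), 1 past the study's threshold and 0 to 12 with 1 array left out. Over all genes, 1063 were called in WT, and 614 in the authors' table and 10 without a filter. Under the smSocs3-KO label 2 of the 30 were called, and 1, 0, 1 and 1 in the same order, 0 with the slide as a block and 0 to 3 with 1 array left out. Over all genes, 557 were called, and 443 in the authors' table, 173 without a filter, 398 with only the groups compared and 52 with the slide block. At day 3 between genotypes 1 of the 30 was called, and 0 in the authors' table, with the mean of a gene's probes, with the slide block and past the study's threshold, and 0 to 1 with 1 array left out. Over all genes, 253 were called, and 232 in the authors' table, 255 with the mean of a gene's probes and 0 with the slide block. In the mean of both responses 14 of the 30 were called, and 8 without a filter, 6 with the slide block, 1 past the study's threshold and 6 to 18 with 1 array left out, lowest without replicate 1 of WT before challenge, of WT at day 3 or of the smSocs3-KO label before challenge. Over all genes, 5178 were called, and 3385 without a filter and 4101 with the slide block. With the slide block, the sterol median between genotypes at day 3 was -1.02 and that of the fatty acid genes 0.15, against -0.37 (-0.63 to -0.04 with 1 array left out), and the fatty acid median before challenge was 0.37, against 0, and -0.05 to 0.36 with 1 array left out. Scaling to the array median moved the median of all genes to 0.17 in WT, 0.15 under the smSocs3-KO label and before challenge between genotypes, and 0.16 in the mean response, and changes are to be read relative to it. The second Srebf2 probe was added after seeing the data. The cause of these shifts was not tested.

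Replicate numbers are shared between groups. The deviations of same-numbered arrays from their group means had r from -0.403 to 0.463 over 11 pairs. The highest values, 0.463 and 0.332, were between WT and smSocs3-KO arrays before challenge, of replicates 1 and 3. Arrays with different numbers were not compared, so these values cannot decide whether the numbers pair the samples. With the number as a replicate block (consensus correlation -0.03), 2 of the 30 genes were called in WT in place of 4, and 14 in the mean of both responses.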
